A study of Mus musculus with 22 samples.

Results

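The long noncoding RNA (lncRNA) genes of a murine CLL line were described from RNA sequencing of 22 samples. A gene was counted as lncRNA where the GENCODE vM39 annotation of the genome build GRCm39 gives it that type, and the estimated counts of its transcripts were summed. There were 178 such genes, with 265 transcripts, among 17023 genes that matched the annotation, of which 14729 were protein-coding. They are 0.541% of the 32884 lncRNA genes that the annotation holds. What set these 178 genes apart from the rest was not tested, so they cannot be taken as representative of the class. Values given for lncRNA genes, such as their overlap, length and level, describe these 178 genes only. A list of 71 well-studied lncRNA genes, Malat1 and Neat1 among them, had 0 members among the 178, and those genes are not analysed here.

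The leukemia line came from the Eμ-TCL1 transgenic mouse, in which the human TCL1 oncogene is driven in B cells, and it has lost both alleles of CDKN2A and CDKN2B. NFKBIE-ko cells had been edited with Cas9 and a guide against Nfkbie, the gene of the NF-κB inhibitor IκBε, and NFKBIE-wt cells were the mock control of the same line. Cells of each genotype were expanded for 21 days in a mouse of their own, so that this mouse and the genotype cannot be told apart, and were then injected into the peritoneum of C57BL/6 recipients that were 2 to 3 months old and kept their own immune cells. Samples were taken after 10 days from the spleen (4 NFKBIE-wt, 4 NFKBIE-ko) and the peritoneal cavity (PC, 4 and 4), without purification of the leukemic cells, and 3 cultures of each genotype were grown for 2 weeks from cells of the spleens of 3 mice (in vitro). The tissue label of all samples is blood, which is not the compartment that the sample titles give. The labels do not say which spleen and PC samples came from the same recipient, and p-values measure the spread between these samples only.

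Transcripts of lncRNA genes are made by RNA polymerase II and often spliced, but have no long open reading frame that is known to be used. Well-studied members act on chromatin, as scaffolds of nuclear bodies or on the gene next to them, and most are expressed at low levels and in few cell types. The class as annotated also holds copies of coding genes that were returned to the genome from mRNA, transcripts that start beside a coding gene and run away from it (divergent), and transcripts that lie opposite a coding gene (antisense). Names such as Gm70833 and A930033H14Rik are placeholders for genes without a known function.

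Of the 178 genes, 172 overlapped an exon of another gene, 158 of them on the same strand and 91 on the opposite strand, and 6 overlapped none. The strand setting used for counting is not given in the sources used here, so reads of overlapping genes may have been shared among them. There were 40 genes with a single exon and 10 that started within 1000 bases of a divergent gene. Their median transcript length was 1341 bases, against 3278 bases for coding genes. Of all runs of 31 bases (31-mers) in a gene's transcripts, the share also held by another gene in the table had a median of 29.0% over the members. It was 0 in 14 genes, under 25% in 80, and 90% or more in 24. A read from a shared stretch can be assigned to either gene.

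Each sample had between 24036763 and 26581304 estimated counts, and lncRNA genes held 123577 to 182298 of them. Levels are given in CPM, the counts relative to the total after TMM scaling, or in TPM, which also corrects for transcript length, where genes are compared. The median of the 178 lncRNA genes stood at 0.314 TPM and the median coding gene at 11.7 TPM. In CPM, 59 lncRNA genes had a mean of at least 1, 20 of at least 10, and 59 less than 0.1. Replicates of a group differed beyond the counting error in all pairs (chi-square per degree of freedom from 7.22 to 199 over 30 pairs), so no library was counted as a duplicate.

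In 2 libraries, markers of other cells went against the group of the label. Leukemic B-cell genes were present in every group, with sums of 1491 to 2227 CPM in the spleens and 2955 to 3667 CPM in the PC. In NFKBIE-wt spleen replicate 4, the summed level of erythroid genes was 6.69 CPM, against 276 to 2016 CPM in the other NFKBIE-wt spleens, and that of granulocyte genes was 0.154 CPM, against 43.5 to 296 CPM. In culture 3 of NFKBIE-wt (in vitro replicate 3), the sum of the erythroid genes was 1418 CPM, against 11.7 to 20.6 CPM in the other NFKBIE-wt cultures, and that of the granulocyte genes 126 CPM, against 0.0382 to 3.08 CPM. The counts of called lncRNA genes, the lncRNA share of the counts and the main fold changes of the named lncRNA genes are also given without them where they were used. In the targeted gene, Nfkbie, the PC samples had 53.5 ± 8.34 CPM (NFKBIE-ko) against 78.6 ± 9.89 CPM (NFKBIE-wt; SD, n = 4), without overlap (log2 fold change -0.56, adjusted p 0.00408). The libraries labelled NFKBIE-ko of the spleen had 98.2 ± 30.0 CPM against 85.5 ± 25.1 CPM and overlapped with NFKBIE-wt, so the transcript level does not check the label there. In vitro the levels were 54.3 ± 5.93 CPM and 103 ± 44.2 CPM (SD, n = 3) and also overlapped.

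Most lncRNA counts came from single-exon genes with near-complete identity to the mRNA of a coding gene. The 4 highest genes, Gm70833, Gm68527, Gm63949 and Gm70834, held 88.3% of all lncRNA counts. Gm70833 (ENSMUSG00000121777, chr7:114304452-114305471, minus strand, 1 exon) shared 99.8% of its 31-mers with Rpl5, which encodes a protein of the large ribosomal subunit, and all 891 of 891 coding bases of Rpl5 were found in it unchanged. Gm68527 (ENSMUSG00000121784, chr10:29574731-29575389, minus strand) held 495 of 495 coding bases of Rpl12, another large-subunit protein gene. The first 80 coding bases of each pair are shown because they carry no letter by which a read could be told to come from the mRNA or from the copy. Capitals mark the start codon.

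Rpl5: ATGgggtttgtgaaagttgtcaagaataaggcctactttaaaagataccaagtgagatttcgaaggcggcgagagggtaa
Gm70833: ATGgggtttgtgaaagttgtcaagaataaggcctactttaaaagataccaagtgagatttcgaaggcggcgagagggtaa
Rpl12: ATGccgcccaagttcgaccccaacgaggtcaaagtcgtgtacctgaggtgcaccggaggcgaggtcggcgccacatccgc
Gm68527: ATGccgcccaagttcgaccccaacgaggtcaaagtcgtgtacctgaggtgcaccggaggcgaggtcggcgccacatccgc

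Rpl37rt (ENSMUSG00000121818, chr5:115240982-115248352) differed from Rpl37 at 1 of 291 coding bases, G249A, counted from 1 at the first base of the coding sequence with the base of Rpl37 first. The stretch from coding base 209 to 288 is shown with that base in capitals, as the single place in the coding sequence where these genes can be told apart.

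Rpl37: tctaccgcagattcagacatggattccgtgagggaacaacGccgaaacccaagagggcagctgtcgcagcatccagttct
Rpl37rt: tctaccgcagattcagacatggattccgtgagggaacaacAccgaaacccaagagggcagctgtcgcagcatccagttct

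The division of counts between copy and coding gene went opposite ways among these pairs. Gm70833 had a mean of 2431 CPM over the 22 samples and Rpl5 134 CPM, so that 93.1% to 95.7% of the sum was given to the lncRNA gene. Gm68527 took 91.4% to 95.0% of its sum with Rpl12 (1574 and 117 CPM). Rpl37rt, in contrast, had 61.1 CPM and Rpl37 807 CPM, and its share was 2.31% to 15.8%.

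In 3 further pairs the coding gene belongs to other processes. Gm70834 (chr7:23646064-23646716), with 99.4% of its 31-mers in Atp5mc2, a subunit gene of the mitochondrial ATP synthase, held 93.4% to 96.5% of the pair. Gm65989 (chr9:37164218-37164661), with 94.2% shared with Sec61g, a subunit gene of the protein channel of the endoplasmic reticulum, held 70.0% to 80.5%. Gm63949 (chr3:54388859-54390346) had all of its 31-mers in Hnrnpa3, a gene of an RNA-binding protein, and the split of 45.7% to 56.8% was near even.

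On the length-corrected scale, the ribosomal pairs can be set against the other ribosomal protein genes, which had a median of 2243 TPM over 82 genes. Rpl5 alone ranked 80th of them with 132 TPM, and its sum with Gm70833, 4382 TPM, would rank 9th. Rpl12 ranked 76th with 208 TPM, and its sum with Gm68527, 4477 TPM, would rank 8th. Which of the genes was transcribed cannot be read from these counts, and values of the 6 copies are given below as values of the deposited assignment.

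**Figure D1:**
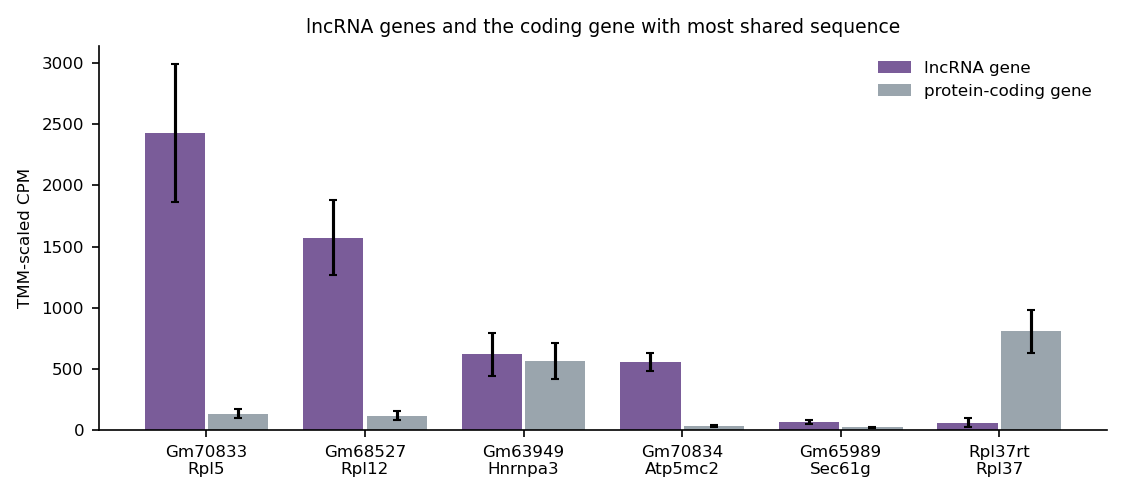
Mean level in TMM CPM over the 22 samples, with SD as error bars, of 6 lncRNA genes and of the coding gene that holds most of their 31-mers. Gm70833, Gm68527, Gm70834 and Gm65989 stood above their coding genes (2431 against 134 CPM for Gm70833 and Rpl5), Rpl37rt below (61.1 against 807 CPM), and Gm63949 near Hnrnpa3 (621 against 567 CPM).

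Among the 10 most abundant members, 4 were no such copies or copies in part. ENSMUSG00000121399 (chr11:83115276-83151786), a gene without a symbol in the region of the Schlafen genes, had 99.7 CPM with 25.5% of its 31-mers shared. 6820431F20Rik had 75.7 CPM with 22.4% shared. H2-K2, in the region of the MHC class I genes, had 25.4 CPM with 51.1% shared. A230045G11Rik, which starts beside Scaf8 and runs away from it, had 20.1 CPM with 24.2% shared.

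The lncRNA genes together took more of the counts in the PC than elsewhere, and this rested on Gm70833. The NFKBIE-wt PC samples held 0.729%, 0.701%, 0.634% and 0.746% of their counts in lncRNA genes (mean 0.703 ± 0.0493%, SD, n = 4). The NFKBIE-ko PC samples held 0.572%, 0.556%, 0.597% and 0.613% (0.585 ± 0.0254%). Both PC groups were separate, whereas the genotypes overlapped in the spleen (0.580 ± 0.0699% and 0.548 ± 0.0476%, n = 4) and in vitro (0.547 ± 0.0316% and 0.529 ± 0.0145%, n = 3).

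This share was compared by two-sided exact permutation tests, adjusted over 6 comparisons and, between compartments, permuted within genotype. As the mean of the NFKBIE-wt and NFKBIE-ko differences, the PC lay 0.105 percentage points above the cultures (exact p = 0.00163, adjusted 0.00980). PC and cultures did not overlap in either genotype. The PC lay 0.0794 points above the spleens (exact p = 0.0155, adjusted 0.0465), but PC and spleen samples overlapped in each genotype. Their ranges were 0.634% to 0.746% against 0.523% to 0.682% in NFKBIE-wt, and 0.556% to 0.613% against 0.485% to 0.598% in NFKBIE-ko. NFKBIE-ko lay 0.118 points below NFKBIE-wt in the PC (p = 0.0286, the smallest possible, adjusted 0.0571 and so not past the threshold), and without any 1 NFKBIE-ko PC sample the exact p was 0.0571. The genotype differences in the spleen (-0.0321 points, exact p = 0.514) and in vitro (-0.0179 points, exact p = 0.400, smallest possible 0.1) were within the spread, the former turning to 0.00166 points without NFKBIE-wt replicate 2, as was that of spleen against in vitro (0.0258 points, exact p = 0.350). Without the 2 libraries that stand apart, the differences were 0.106 points for PC against in vitro (exact p = 0.00190), 0.0699 points for PC against spleen (exact p = 0.0286), 0.0358 points for spleen against in vitro (exact p = 0.309), -0.0511 points for the genotypes in the spleen (exact p = 0.343) and -0.0169 points in vitro (exact p = 0.600). Without Gm70833 the differences were 0.0167 points for PC against in vitro (exact p = 0.200), 0.0102 points for PC against spleen (exact p = 0.417) and -0.0172 points for the genotypes in the PC (exact p = 0.286).

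**Figure D2:**
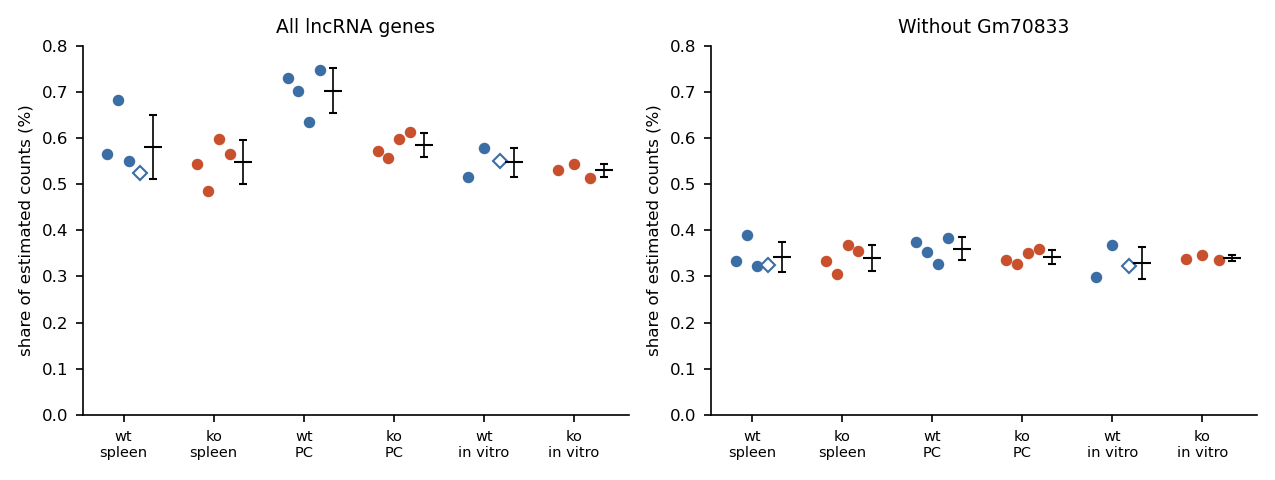
Share of the estimated counts in lncRNA genes, in percent, for each of the 22 samples by group (NFKBIE-wt blue, NFKBIE-ko orange), with the mean and SD in black and the 2 libraries that stand apart as open diamonds. The NFKBIE-wt PC samples were the highest group (0.703 ± 0.0493%), and the NFKBIE-ko PC samples lay below all of them.

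Gm70833 itself read 3562, 3419, 2969 and 3746 CPM in NFKBIE-wt PC and 2378, 2348, 2492 and 2599 CPM in NFKBIE-ko PC. All NFKBIE-ko PC values were below all NFKBIE-wt PC values (edgeR quasi-likelihood log2 fold change -0.49, standard error 0.09, Benjamini-Hochberg adjusted p 0.00123), but not beyond the 1 on the log2 scale used for calls. Rpl5 had a log2 fold change of -0.73 in the same comparison.

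Genotype was compared within each compartment. A gene was called where edgeR's quasi-likelihood test, run over all genes, gave a Benjamini-Hochberg adjusted p under 0.05 and a change of more than 1 on the log2 scale, up or down. In the PC, 12 of 94 tested lncRNA genes (12.8%) were called, 6 higher in NFKBIE-ko, where 9.85% of all tested genes were called higher, and 6 lower, where 3.5% of all genes were. The remaining 84 members had too few counts to be tested. The median log2 fold change of the lncRNA genes was -0.13, and that of all genes -0.01. Of 35 members with less than 25% of their 31-mers shared, 6 were called.

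In the spleen, 3 of 83 tested lncRNA genes (3.61%) were called, 1 higher in NFKBIE-ko (1.33% of all tested genes) and 2 lower (1.55% of all genes). The other 95 members had too few counts. The median log2 fold change was -0.11 over lncRNA genes and 0.00 over all genes. Without NFKBIE-wt spleen replicate 4, 7 lncRNA genes were called, and A930033H14Rik, Gm38503 and Gm71713, called with it, had log2 fold changes of -2.25, -1.19 and 1.57. The 4 genes gained were Zfp862-ps (1.85, adjusted p 0.0366), A930004D18Rik (2.03, adjusted p 0.0336), Magef1 (-1.02, adjusted p 0.0426) and Gm71981. The count was 1 without NFKBIE-wt replicate 1 or NFKBIE-ko replicate 3, and 0 without NFKBIE-wt replicate 3, NFKBIE-ko replicate 1 or NFKBIE-ko replicate 4, so the spleen calls depended on single libraries. In vitro, 0 of 83 tested lncRNA genes were called by edgeR and 0 by DESeq2, where 0.0336% of all genes were called by edgeR, and 3 had an unadjusted p under 0.05. The smallest adjusted p in vitro was 0.531, and the count was again 0 without culture 3 of NFKBIE-wt, and 1 without culture 2.

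With all libraries, A930033H14Rik was the lncRNA gene called in both the spleen and the PC. These comparisons share no library. They are not independent, since both compartments were sampled from the same groups of recipients and each genotype had the same expansion mouse. Without NFKBIE-wt spleen replicate 4, Gm71981, Zfp862-ps and A930004D18Rik were also called in the spleen, higher in NFKBIE-ko as in the PC. A930033H14Rik lies on chr10:69045592-69048928, minus strand, with 2 exons, opposite the coding gene Rhobtb1. Only 0.2% of its 31-mers were shared. A stretch of 120 bases of its exon (chr10:69048794-69048913, GRCm39, read on the minus strand) is shown because no transcript of another gene in the table holds any of its 31-mers, on either strand. All letters are capitals for this reason. The annotation places an exon of Rhobtb1, on the opposite strand, at the start of the gene.

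A930033H14Rik: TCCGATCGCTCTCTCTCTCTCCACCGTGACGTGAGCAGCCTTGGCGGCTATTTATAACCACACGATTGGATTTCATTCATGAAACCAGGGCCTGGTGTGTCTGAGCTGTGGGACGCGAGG

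In the spleen, A930033H14Rik read 1.16, 0.764, 1.43 and 0.999 CPM in NFKBIE-wt and 0.229, 0.196, 0.237 and 0.265 CPM in NFKBIE-ko. In the PC it read 2.85, 2.09, 1.71 and 2.17 CPM in NFKBIE-wt and 0.755, 0.867, 0.718 and 0.629 CPM in NFKBIE-ko. The genotypes did not overlap in either compartment, and the PC was higher than the spleen in each genotype (PC against spleen 1.34, standard error 0.22, adjusted p 4.99e-05).

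The log2 fold change of A930033H14Rik was -2.21 in the spleen (standard error 0.38, adjusted p 0.0156) and -1.58 in the PC (standard error 0.25, adjusted p 0.000637). In the spleen it rested on 19 to 37 counts per NFKBIE-wt sample and 5 to 7 per NFKBIE-ko sample. In vitro the levels were 1.76, 0.687 and 1.15 CPM against 0.820, 0.497 and 0.862 CPM, which overlapped (log2 fold change -0.72, adjusted p 0.579). Rhobtb1 fell in NFKBIE-ko as well, from 30.2 ± 3.98 to 12.1 ± 0.928 CPM among PC samples (SD, n = 4, -1.33 on the log2 scale, adjusted p 1.3e-05) and read 13.5 and 7.41 CPM in the spleen (-0.86, adjusted p 0.0509).

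Gm38503 (chr3:65385649-65436919, minus strand, 28.5% shared) lies opposite Tiparp, a gene of an ADP-ribosyltransferase that is induced through the aryl hydrocarbon receptor. In the spleen it read 3.71, 3.62, 3.72 and 3.69 CPM in NFKBIE-wt and 1.60, 1.45, 1.70 and 1.74 CPM in NFKBIE-ko. Every NFKBIE-ko spleen was below every NFKBIE-wt spleen (log2 fold change -1.18, standard error 0.23, adjusted p 0.0248). In the PC the groups were also separate, with 5.43, 5.29, 5.74 and 5.57 CPM against 3.10, 3.11, 3.71 and 3.93 CPM, but the change was below the fold used for calls (-0.68, adjusted p 0.00425). Tiparp had log2 fold changes of -0.74 in the spleen (adjusted p 0.0144) and -0.43 in the PC (adjusted p 0.00529).

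Gm71713 (chr5:118619259-118641668, plus strand) was the lncRNA gene called higher in the NFKBIE-ko spleen. It read 0.918, 0.644, 0.969 and 0.961 CPM in NFKBIE-wt and 2.32, 1.57, 3.27 and 2.91 CPM in NFKBIE-ko, without overlap (log2 fold change 1.52, standard error 0.34, adjusted p 0.0365). Of its 31-mers, 61.5% were shared, mostly with the pseudogene Btf3-ps11. In the PC it was low in both genotypes, at 0.724, 0, 0 and 0.383 CPM against 0.415, 0.394, 0.464 and 0.472 CPM.

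With all libraries, G430095P16Rik was the lncRNA gene called for a genotype difference that depended on the compartment. It lies on chr8:85449593-85453478, plus strand, opposite Nfix, which encodes a transcription factor of the nuclear factor I family, and 15.2% of its 31-mers were shared. In the PC it read 0.442, 0.869, 0.233 and 0.468 CPM in NFKBIE-wt and 3.47, 3.04, 2.74 and 3.89 CPM in NFKBIE-ko. The NFKBIE-ko PC samples were all higher (log2 fold change 2.69, standard error 0.34, adjusted p 0.000149).

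In the spleen, G430095P16Rik read 0.240, 0.483, 0.232 and 0.423 CPM in NFKBIE-wt and 0.190, 0.470, 0.434 and 0.303 CPM in NFKBIE-ko, and the genotypes overlapped (log2 fold change 0.01, adjusted p 0.99). In vitro it read 0.320, 0.839 and 0.931 CPM against 1.94, 1.57 and 1.64 CPM, which did not overlap but missed the threshold (1.28, standard error 0.47, adjusted p 0.531).

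The interaction, the genotype effect of the spleen less that of the PC, was -2.68 (standard error 0.59, adjusted p 0.0143) for G430095P16Rik. It was the 1 lncRNA gene of 103 called in this contrast, in which 1.85% of all genes were called. For spleen minus in vitro, 0 lncRNA genes were called by edgeR (0.312% of all genes) and 2 by DESeq2, with 11 at an unadjusted p under 0.05. For the PC minus in vitro, 0 were called by edgeR (3.12% of all genes) and 1 by DESeq2, with 8 at an unadjusted p under 0.05. The smallest edgeR adjusted p of a lncRNA gene there was 0.0421, with a change within the fold used for calls. Without the 2 libraries that stand apart, 2 genes were called for spleen minus PC, G430095P16Rik (-2.55, adjusted p 0.0165) and Gm16181 (-2.30). The count was also 2 without NFKBIE-ko spleen replicate 2, NFKBIE-ko PC replicate 1 or NFKBIE-wt in vitro replicate 2. For spleen minus in vitro it was 2 without NFKBIE-wt in vitro replicate 1 or 2, and for PC minus in vitro 1 without NFKBIE-ko PC replicate 1. Nfix moved with G430095P16Rik, from 3.39 ± 1.12 to 11.2 ± 1.82 CPM among PC samples (1.71 on the log2 scale, adjusted p 0.00039), with -0.62 in the spleen (adjusted p 0.338).

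The window around the annotated start of G430095P16Rik (sequence of GRCm39, chr8:85449343-85449642, plus strand) is printed because this gene was called for the difference between compartments. Capitals mark the 50 bases from the start on, after 250 bases before it in lower case.

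G430095P16Rik: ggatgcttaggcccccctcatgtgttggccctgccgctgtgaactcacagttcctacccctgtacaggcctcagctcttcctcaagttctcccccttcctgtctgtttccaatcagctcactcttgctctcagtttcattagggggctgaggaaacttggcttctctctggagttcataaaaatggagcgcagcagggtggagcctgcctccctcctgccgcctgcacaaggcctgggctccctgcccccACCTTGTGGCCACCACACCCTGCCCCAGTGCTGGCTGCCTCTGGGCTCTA

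The other lncRNA genes called higher in NFKBIE-ko PC had a low level in NFKBIE-wt PC. Gm71981 (chr7:3863680-3872226, minus strand) read 0.523, 0.355, 0.543 and 0.468 CPM in NFKBIE-wt PC and 3.85, 4.26, 4.18 and 2.52 CPM in NFKBIE-ko PC. The groups were far apart (log2 fold change 2.94, standard error 0.26, adjusted p 1.76e-05). It lies beside the Pira genes, which encode activating receptors of myeloid cells, and shared 62.2% of its 31-mers, of which 22.1% with Pira2. In the spleens, Gm71981 had 0, 0, 0 and 1 counts in NFKBIE-wt and 5 to 20 in NFKBIE-ko, so no fold is given there. Its nearest coding gene, Pira12, rose from 4.63 ± 1.17 to 24.1 ± 3.06 CPM (log2 fold change 2.37, adjusted p 6e-06).

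Gm70636 (chr1:157239922-157248638, plus strand, 17.2% shared) lies opposite Rasal2, a gene of a Ras GTPase-activating protein. It read 0.844, 0.395, 0.349 and 1.40 CPM in NFKBIE-wt PC and 1.93, 3.31, 2.20 and 2.99 CPM in NFKBIE-ko PC, without overlap (log2 fold change 1.79, standard error 0.42, adjusted p 0.00616). In the spleen its log2 fold change was 1.82, with an adjusted p of 0.0988, and Rasal2 was called in the PC as well (1.60, adjusted p 0.000614). Zfp862-ps (ENSMUSG00000121879, chr6:48481263-48511766, 5.2% shared) read 0.402, 0.395, 0.271 and 0.298 CPM in NFKBIE-wt PC and 1.13, 0.867, 1.14 and 0.865 CPM in NFKBIE-ko PC. These groups were also separate (1.53, standard error 0.30, adjusted p 0.00231). In the spleens it read 0.120, 0.161, 0.155 and 0.423 CPM against 0.724, 0.470, 0.395 and 0.568 CPM, which overlapped through NFKBIE-wt replicate 4 (1.31, adjusted p 0.175).

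The remaining genes called higher were A930004D18Rik (log2 fold change 1.43) and Gm16181, which lies opposite Nfkbil1, a gene of an IκB-like protein in the MHC region. Gm16181 is named after its values were seen. It had 1 to 2 counts in each NFKBIE-wt PC sample and 15 to 28 in each NFKBIE-ko PC sample, so no fold is given.

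Among the genes called lower in NFKBIE-ko PC beside A930033H14Rik, Thap6 (ENSMUSG00000121865, chr5:92110248-92170798) read 3.34, 4.46, 2.83 and 1.70 CPM in NFKBIE-wt and 1.28, 1.26, 0.718 and 1.06 CPM in NFKBIE-ko. All NFKBIE-ko values were below all NFKBIE-wt values (log2 fold change -1.52, standard error 0.31, adjusted p 0.00313). Rchy1, the ubiquitin ligase gene opposite it, had 74.0 and 40.8 CPM (-0.87, adjusted p 9e-06). Gm63314 (chr15:75505984-75525492) read 4.06, 4.34, 3.53 and 3.87 CPM in NFKBIE-wt PC and 1.51, 2.37, 1.86 and 1.97 CPM in NFKBIE-ko PC, also without overlap (-1.05, standard error 0.19, adjusted p 0.00128). Gm57587 (-1.21) and Ly6a2 (-1.39) were also called lower, as was Gm67348, which had 0 to 7 counts in NFKBIE-ko PC.

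**Figure D3:**
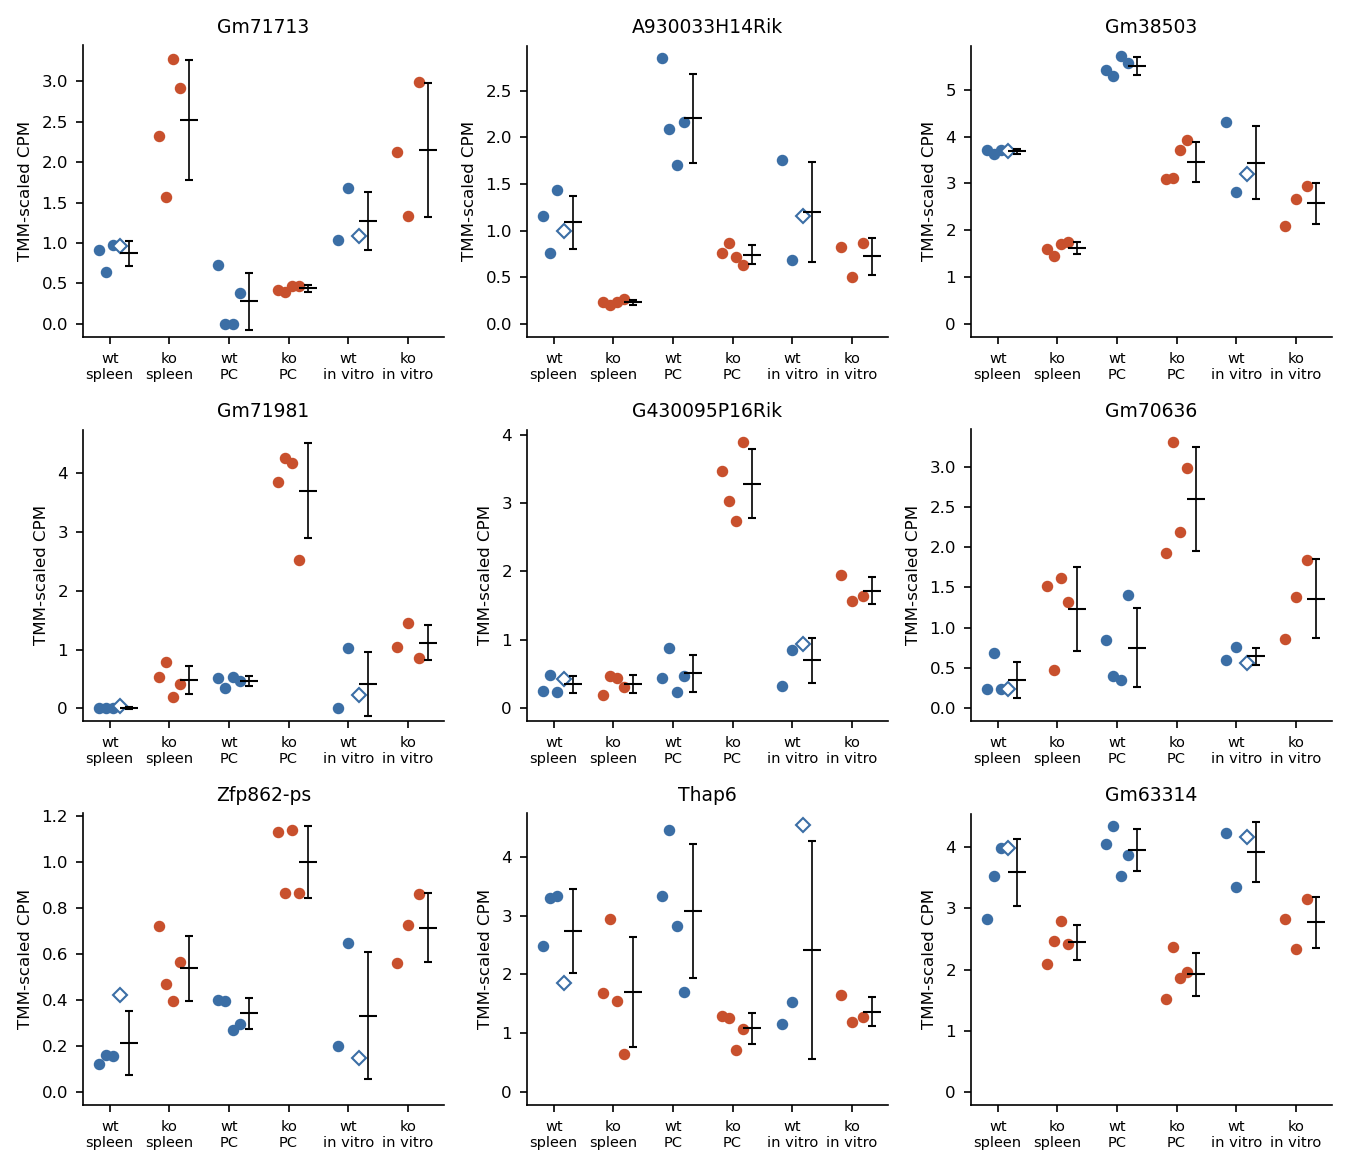
Level in TMM CPM of the 9 named lncRNA genes called between genotypes in the spleen or the PC, for each sample by group (NFKBIE-wt blue, NFKBIE-ko orange), with mean and SD in black and the 2 libraries that stand apart as open diamonds. A930033H14Rik was lower in NFKBIE-ko in the spleen and the PC, and G430095P16Rik was higher in NFKBIE-ko in the PC (2.74 to 3.89 CPM against 0.233 to 0.869 CPM) while its genotypes overlapped in the spleen.

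Several abundant genes moved by less than the fold used for calls. A230045G11Rik was lower in NFKBIE-ko PC (log2 fold change -0.86, standard error 0.09, adjusted p 5.3e-05). H2-K2 was higher in NFKBIE-ko spleen (0.78, standard error 0.18, adjusted p 0.0414, and 0.63 without NFKBIE-wt replicate 4).

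The unpurified samples differed in their content of other cells, and fewer cells of a type and less RNA per cell cannot be told apart in them. The summed level of 9 myeloid genes, Lyz2 and Csf1r among them, was 575 to 1720 CPM in NFKBIE-wt PC, 3795 to 5574 CPM in NFKBIE-ko PC, 24.8 to 85.1 CPM in NFKBIE-wt spleen and 90.3 to 352 CPM in NFKBIE-ko spleen. In the cultures it was 32.2 to 82.4 CPM (NFKBIE-wt) and 33.3 to 42.1 CPM (NFKBIE-ko), with C1qa, C1qc and Cd14 at 0 in NFKBIE-ko. All 9 were called higher in PC than in spleen, and 8 of 9 higher in NFKBIE-ko PC. Genes of CD8+ and NK cells summed to 1.27 to 11.4 CPM in NFKBIE-wt spleen and 46.3 to 120 CPM in NFKBIE-ko spleen, and to 12.2 to 30.2 CPM and 38.6 to 68.6 CPM in the PC. All 7 erythroid genes were called lower in the PC than in the spleen. In NFKBIE-ko PC, 5 of 7 T-cell genes were called higher (sums of 231 to 310 CPM against 201 to 264 CPM). Most of that sum was Cd2 (means of 248 and 211 CPM), and Trac went the other way (6.72 and 13.2 CPM). Of 5 tested granulocyte genes, 3 were called lower there (27.1 to 40.6 CPM against 113 to 337 CPM), while Ltf had a higher mean (17.5 and 9.09 CPM). In NFKBIE-ko spleen 3 of 5 plasma-cell genes were called lower (422 to 566 CPM against 497 to 817 CPM), while Irf4 had a higher mean (319 and 296 CPM). The part of these cells in the lncRNA differences was not tested.

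Compartments were compared as the mean of the NFKBIE-wt and the NFKBIE-ko differences, in a fit of all 22 samples in which 103 lncRNA genes were tested. PC and spleen differed in 24 of them (23.3%), of which 21 were higher in the PC, where 12.5% of all genes were called higher, and 3 lower, where 5.58% of all genes were. PC and in vitro differed in 19 (18.4%), 14 higher in the PC (13.8% of all genes) and 5 lower (5.5%). Spleen and in vitro differed in 7 (6.80%), 2 higher in the spleen (6.16% of all genes) and 5 lower (3.59%). The median log2 fold changes of the lncRNA genes were 0.17, 0.23 and -0.05, and those of all genes -0.02, -0.03 and 0.04. These comparisons share samples and are not independent of each other. Without the 2 libraries that stand apart, 24, 21 and 14 lncRNA genes were called, in the same order, and for spleen against in vitro the direction was then even, with 7 higher and 7 lower in the spleen. For spleen against in vitro the count was 11 without NFKBIE-wt spleen replicate 4, 4 without culture 1 of NFKBIE-wt and 3 without culture 1 of NFKBIE-ko. Within NFKBIE-wt alone, 8 lncRNA genes were called between PC and spleen and 0 between spleen and in vitro, and within NFKBIE-ko alone 23 and 11. The share of all genes called was not counted within a genotype. Both libraries that stand apart are NFKBIE-wt and were kept in these counts, so the counts are no result about the genotypes.

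Gm68157 was the most abundant of the named lncRNA genes that were low in sharing (11.2%) and higher in the PC. It lies on chr6:128969794-128985006, plus strand, 747 bases from Clec2f, a C-type lectin gene. It read 43.1, 41.5, 40.2 and 55.4 CPM in NFKBIE-wt PC and 43.2, 52.0, 40.1 and 43.1 CPM in NFKBIE-ko PC, against 13.9, 14.2, 7.56 and 16.5 CPM and 9.56, 12.2, 8.72 and 9.20 CPM in the spleens. All PC samples were above all spleens (log2 fold change 1.98, standard error 0.15, adjusted p 3.67e-09).

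The cultures read 22.9, 22.8 and 12.6 CPM for Gm68157 in NFKBIE-wt and 15.1, 19.9 and 17.7 CPM in NFKBIE-ko, overlapping with the spleens and below all PC samples (PC against in vitro 1.28, standard error 0.16, adjusted p 3.01e-06).

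Gpr137b-ps (ENSMUSG00000121485, chr13:12628945-12684621, minus strand), a copy of Gpr137b, the gene of a lysosomal membrane protein, read 38.5 to 51.8 CPM in NFKBIE-wt PC and 52.2 to 64.5 CPM in NFKBIE-ko PC, against 10.7 to 18.5 CPM and 11.1 to 21.7 CPM in the spleens. PC and spleen did not overlap (log2 fold change 1.74, standard error 0.20, adjusted p 4.88e-07), and PC against in vitro gave 1.39 (standard error 0.21, adjusted p 2.52e-05). It shared 62.6% of its 31-mers with Gpr137b, whose own log2 fold change between PC and spleen was 1.91.

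Gm70432 (chr1:58691638-58695003), in the region of the caspase gene Casp8, had a log2 fold change of 1.66 between PC and spleen (standard error 0.27, adjusted p 4.18e-05). Its values were 2.69, 1.62, 1.59 and 3.15 CPM in NFKBIE-wt PC and 0.615 to 1.24 CPM in NFKBIE-wt spleen. In NFKBIE-ko they were 1.38 to 1.94 CPM and 0.227 to 0.587 CPM, again without overlap.

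D930048N14Rik and Magef1 were called between PC and spleen over both genotypes, but stayed within the fold used for calls in NFKBIE-wt alone. D930048N14Rik (chr11:51541772-51548508, opposite N4bp3) read 3.83 to 5.74 CPM in NFKBIE-wt PC and 2.36 to 3.65 CPM in NFKBIE-wt spleen, and 5.48 to 8.10 CPM and 1.10 to 2.32 CPM in NFKBIE-ko. Its log2 fold change was 1.35 (standard error 0.18, adjusted p 4.32e-06), with 0.77 in NFKBIE-wt alone (adjusted p 0.0248) and 1.92 in NFKBIE-ko alone. Magef1 (ENSMUSG00000121787, chr16:21140249-21152139) had 1.30 (standard error 0.13, adjusted p 8.77e-08), with 0.89 in NFKBIE-wt alone (adjusted p 0.000881) and 1.72 in NFKBIE-ko alone. The interaction with genotype missed the threshold for both (-1.15, adjusted p 0.0721 for D930048N14Rik, and -0.83, adjusted p 0.0654 for Magef1).

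Gm66129 (chr10:21983569-22025100, 7.4% shared) was higher in the PC than in vitro. It read 10.2, 11.4, 11.4 and 14.2 CPM in NFKBIE-wt PC and 6.16, 7.45, 7.81 and 6.84 CPM in NFKBIE-ko PC, against 4.75, 1.60 and 4.54 CPM and 1.83, 2.75 and 2.63 CPM in vitro. All PC samples were above all cultures (log2 fold change 1.63, standard error 0.23, adjusted p 1.04e-05). Gm2011 (chr3:40801255-40824397) differed in the same direction (1.17, standard error 0.25, adjusted p 0.000686).

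Of the 19 lncRNA genes called between PC and in vitro, 5 were higher in vitro. Gm67490 (chr9:48315096-48357780) shared 79.9% of its 31-mers, mainly with Nxpe1-ps, and read 6.39, 10.3 and 2.90 CPM in NFKBIE-wt and 12.4, 11.3 and 12.1 CPM in NFKBIE-ko in vitro, against 2.33, 2.69, 2.33 and 1.96 CPM and 2.87, 2.76, 1.56 and 1.53 CPM in the PC. The cultures lay above all PC samples, with NFKBIE-wt in vitro replicate 3 nearest to them at 2.90 CPM (PC against in vitro -1.97, standard error 0.33, adjusted p 6.73e-05).

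In the spleens, Gm67490 read 2.96, 1.65, 1.32 and 7.76 CPM in NFKBIE-wt and 3.12, 3.72, 4.42 and 3.14 CPM in NFKBIE-ko, the highest being NFKBIE-wt spleen replicate 4. Spleen against in vitro was -1.33 (standard error 0.33, adjusted p 0.00786), and -1.87 without both libraries. Gm71713 was also lower in the PC, by -2.24 on the log2 scale against in vitro (standard error 0.52, adjusted p 0.00137) and by -2.08 against the spleen. G430095P16Rik was lower in the spleen than in vitro (-1.65, standard error 0.31, adjusted p 0.00179).

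Without the 2 libraries that stand apart, the log2 fold changes between PC and spleen were 2.05 for Gm68157, 1.73 for Gpr137b-ps, 1.59 for Gm70432, 1.43 for D930048N14Rik, 1.30 for Magef1, 1.32 for A930033H14Rik and -2.05 for Gm71713. Between PC and in vitro they were 1.20 for Gm68157, 1.39 for Gpr137b-ps, 1.77 for Gm66129, 1.25 for Gm2011, -2.10 for Gm67490 and -2.25 for Gm71713, and between spleen and in vitro -1.54 for G430095P16Rik. All of these were called with and without them.

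**Figure D4:**
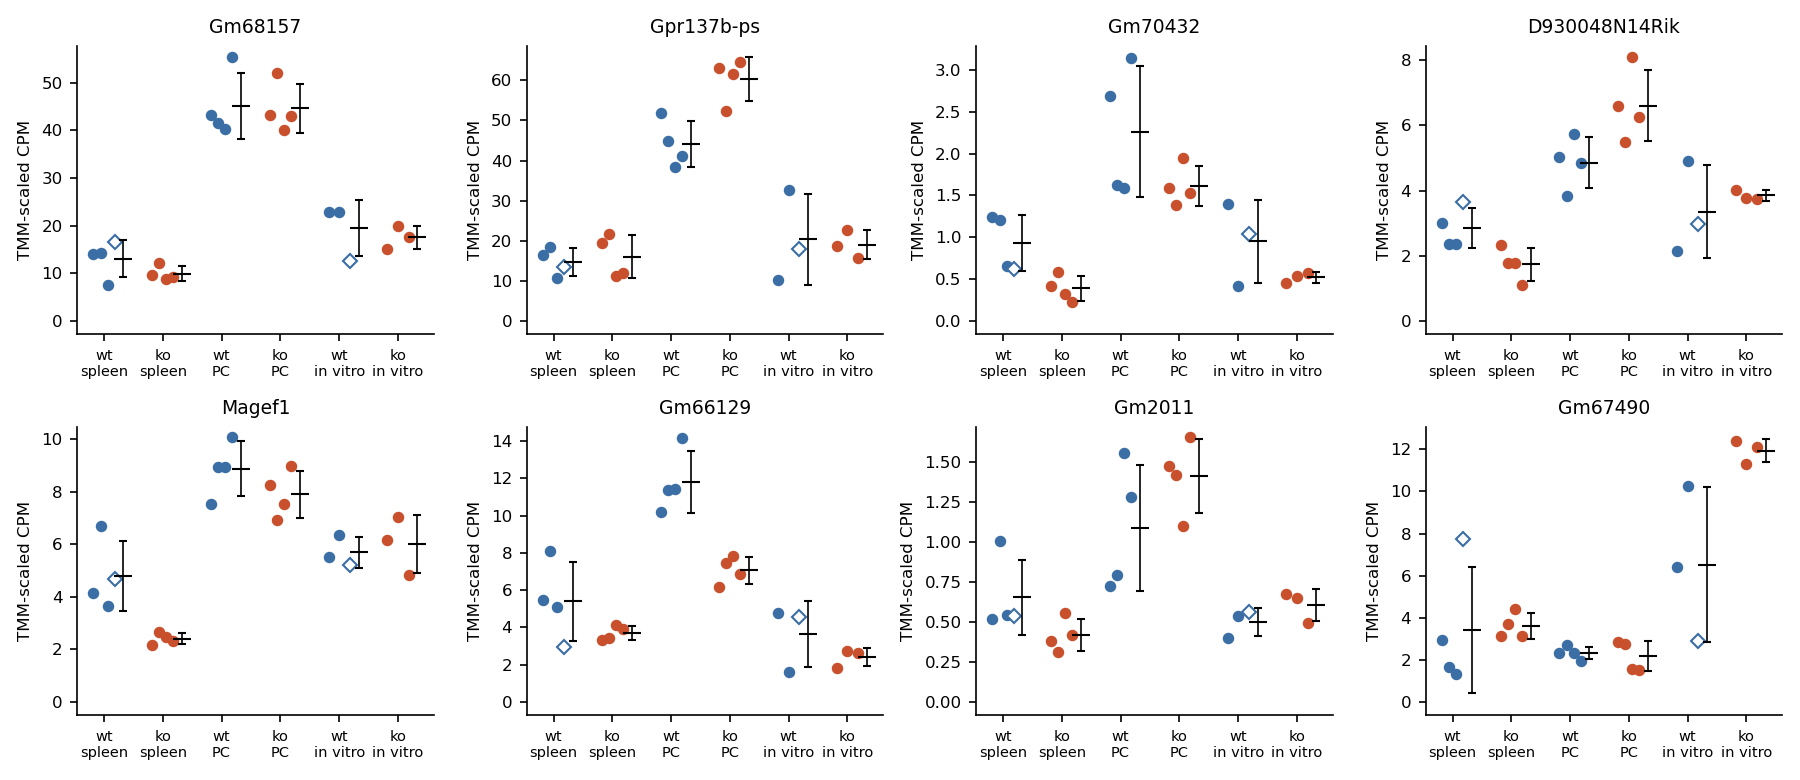
Level in TMM CPM of 8 named lncRNA genes called between the PC and the spleen or the cultures, for each sample by group (NFKBIE-wt blue, NFKBIE-ko orange), with mean and SD in black and the 2 libraries that stand apart as open diamonds. Gm68157 was at 40.1 to 55.4 CPM in the PC and at 7.56 to 16.5 CPM in the spleens, and in Gm67490 both open diamonds lay away from their groups (7.76 CPM in the spleen, 2.90 CPM in vitro).

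Levels over all 6 groups were also ordered. Of the 103 tested lncRNA genes, the highest group mean lay in NFKBIE-wt PC for 35, in NFKBIE-ko PC for 24, in the spleens for 11 (NFKBIE-wt) and 10 (NFKBIE-ko) and in the cultures for 11 (NFKBIE-wt) and 12 (NFKBIE-ko). The order is a description, since neighbouring groups overlapped in many of these genes. It was not counted over all tested genes, so it is no result about lncRNA genes. Of all genes, too, more were called higher than lower in the PC. The shares were 12.5% against 5.58% for PC against spleen and 13.8% against 5.5% for PC against in vitro. Over the 6 comparisons, 37 lncRNA genes were called at least once, and the same count over all genes was not made.

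The coding gene nearest to each called lncRNA gene was looked up, and 0 of those called moved in the opposite direction. Between genotypes in the PC, 10 of the 12 called lncRNA genes had a tested nearest coding gene, of which 4 were called, all in the same direction, where 13.8% of all tested coding genes were called. In the spleen 0 of 3 were called, against 3.01% of all coding genes. These shares of coding genes hold calls in either direction, and whether the neighbours exceeded them was not tested. Between PC and spleen 5 of 20 were called (18.4% of all coding genes), between PC and in vitro 4 of 16 (19.8%), and between spleen and in vitro 0 of 6 (10.2%), so the counts between compartments are no result about the neighbours. Where the exons of a pair overlap on opposite strands, reads of both genes cannot be told apart there without the strand. Reads from a stretch of sequence that a pair shares could also be assigned to either gene.

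**Figure D5:**
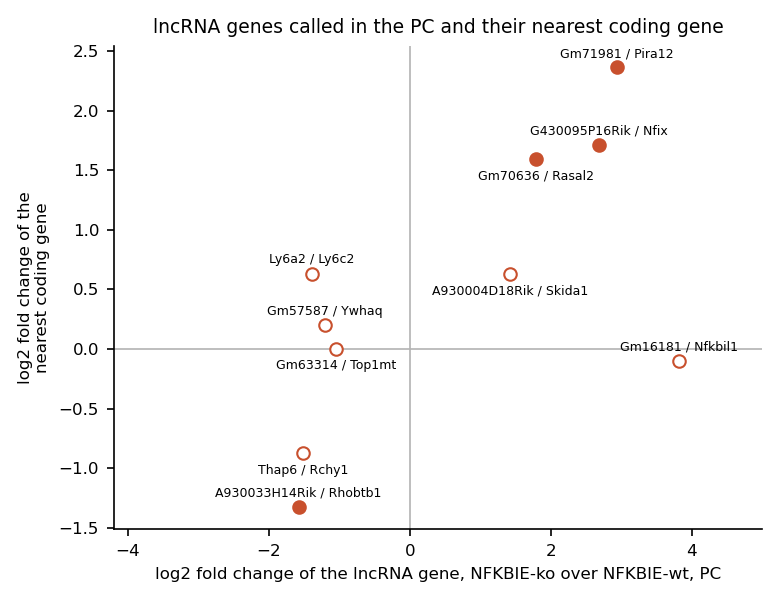
Log2 fold change of NFKBIE-ko against NFKBIE-wt in the PC for lncRNA genes called there (x axis) and for their nearest tested coding gene (y axis), 10 pairs, filled where the coding gene was also called. The 4 filled pairs moved in the same direction, with A930033H14Rik at -1.58 and Rhobtb1 at -1.33 on the low side.

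Short motifs were counted on both strands in the windows around the start that GENCODE vM39 gives (250 bases before, 50 after, sequence of GRCm39). The NF-κB consensus (κB motif) was in 11 of the 178 lncRNA windows (6.18%) and in 8.58% of the windows of all 17023 genes. It was in 0 of the 3 lncRNA genes called in the spleen and 0 of the 12 called in the PC, G430095P16Rik included. GAGGAAGT, a binding motif of the myeloid and B-cell factor PU.1, was in 4 lncRNA windows (2.25%, 3.10% of all), among them Gm71981 and Thap6. The TATA box motif TATAAA was in 34 lncRNA windows (19.1%, against 11.7% of all). Each motif was searched on its own, and matches of different motifs could overlap. A match of letters in a window is no evidence that a factor binds there.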

How the data were processed

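The authors sequenced mRNA libraries (TruSeq, paired-end) of 22 samples and deposited estimated counts (expected counts) per transcript, which had not been normalized. Per the labels' processing notes these were made with Salmon 1.8 on GRCm39. Of 62492 transcripts, 62147 matched GENCODE vM39, the rest holding 0.619% of all counts. The estimates were summed per gene and rounded, since 69.5% of the values were not whole. Genes were tested with edgeR 4.0.16 in R 4.3.3 (filter on low counts, TMM scaling, robust quasi-likelihood fits, Benjamini-Hochberg adjustment over all genes), by genotype within each compartment, and by compartment and interaction in a fit of all 22 samples. Samples were not treated as paired by replicate number, since the labels do not say what the number marks. Shares of counts were compared by exact permutation tests. Sequence shared between genes was measured in 31-mers, and tests were checked on simulated counts. Alternatives were DESeq2 1.42.0, other scaling, filters, per-transcript tests, blocks and each library left out. The 25% limit of shared 31-mers as an alternative was chosen after seeing the data.

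Named genes were the 10 most abundant members and, per comparison and direction, called members with the largest fold change, a minimum level and no overlap between groups. The members and lists were chosen with earlier results of these data known.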

Additional observations from a re-analysis of the deposited data

Results flagged for a closer look

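In 7 of 116 groups of 4 samples, 1 library lay far from the other 3, where chance gives about 1 in 20 groups. In NFKBIE-wt PC, 6820431F20Rik was at 55.03 CPM in replicate 4, with 76.89 to 80.34 CPM in the others. In NFKBIE-wt spleen replicate 2, Gm2011 was high at 1.006 CPM (others 0.5191 to 0.5425), Gm70636 was high at 0.6838 CPM (others 0.2306 to 0.2396) and Gm71713 was low at 0.6436 CPM (others 0.9185 to 0.9687). In NFKBIE-wt spleen replicate 4, the library without the erythroid and granulocyte genes of its group, Gm71981 was at 0.03843 CPM where the others were at 0, and Zfp862-ps at 0.4228 CPM (others 0.1198 to 0.1609). Gm16181 was at 0.07755 CPM in NFKBIE-wt PC replicate 3 (others 0.0395 to 0.04253), a difference of 1 count.

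The genotype effect on G430095P16Rik differed between compartments by the test of the difference itself, spleen minus PC -2.678 on the log2 scale (edgeR, adjusted p 0.01428).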

How the results depend on the processing

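Over the 22 gene results that the naming rule gave, no direction changed under the alternatives run for them, but the spleen calls were lost often: Gm71713 in 10, Gm38503 in 8 and A930033H14Rik in 6 of the alternatives. The cause was not tested where no construction of the alternative shows it. Levels near 1 CPM limit most members.

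With the replicate number as a block, the counts of called lncRNA genes were 0 in the spleen (from 3), 12 in the PC, 0 in vitro, 22 for PC against spleen, 6 for spleen against in vitro and 17 for PC against in vitro. The correlation of residuals between same-numbered samples lay between -0.249 and 0.0932, so the samples were not treated as paired. With so few samples per group, these correlations cannot tell whether same-numbered spleen and PC samples came from the same recipient. In the spleen (3 called), DESeq2 and the fit without the 2 libraries that stand apart gave 7, all 22 samples in 1 fit gave 9, unadjusted p with the same fold threshold gave 9 (as in each count by unadjusted p here), and tests per transcript gave 0. In the PC (12), the adjusted p alone gave 28, the stricter filter 6 and tests per transcript 7. In vitro (0), unadjusted p gave 2. For PC against spleen (24), the adjusted p alone gave 43, the stricter filter 13 and NFKBIE-wt alone 8. For spleen against in vitro (7), the adjusted p alone gave 16, the stricter filter 3, samples of both compartments alone 3, NFKBIE-wt alone 0, NFKBIE-ko alone 11 and the fit without the 2 libraries 14. For PC against in vitro (19), the adjusted p alone gave 40, no filter 32, the stricter filter 9 and NFKBIE-wt alone 12. For the interactions, spleen minus PC (1) gave 6 by unadjusted p, 2 by DESeq2 and 2 without the 2 libraries, spleen minus in vitro (0) gave 8 by unadjusted p and 2 by DESeq2, and PC minus in vitro (0) gave 5 and 1. The 6 genes without exon overlap gave 0 calls in each comparison. Together they held 6.19e-05% to 0.000224% of a sample's counts, too few for this to be a check of the calls. Genes with less than 25% of their 31-mers shared gave 1, 6, 0, 12, 2 and 8, from fewer genes tested.

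Leaving out each library gave 0 to 7 in the spleen, 9 to 13 in the PC, 0 to 1 in vitro, 21 to 26 for PC against spleen, 3 to 11 for spleen against in vitro, 16 to 20 for PC against in vitro, 1 to 2 for spleen minus PC, 0 to 2 for spleen minus in vitro and 0 to 1 for PC minus in vitro.

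The share of counts in lncRNA genes, in percentage points, ranged over left-out libraries from -0.0511 to 0.00166 for the spleen genotypes, from -0.141 to -0.103 for the PC genotypes, from -0.0341 to -0.00256 for the cultures, from 0.0690 to 0.0963 for PC against spleen, from 0.00892 to 0.0363 for spleen against in vitro and from 0.0971 to 0.117 for PC against in vitro. Without Gm70833 it was -0.0172 for the genotypes in the PC, 0.0105 in vitro, 0.0102 for PC against spleen and 0.0167 for PC against in vitro. Over the 6 genes without exon overlap it was 9.35e-06 in the spleen, 2.8e-06 in the PC, -2.22e-05 for PC against spleen and 9.55e-06 for PC against in vitro. These genes held too few counts for their shares to check the differences above.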
